A study of Mus musculus with 4 samples.

Results

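Copies of the ancient mammalian L1M lineages and of the HAL1 elements were examined among the transposable element (TE) counts of mouse embryonic stem cells (ESCs). The rule goes by repeat name alone: a name that starts with L1M followed by A, B, C, D, E or a digit, or that starts with HAL1. It uses no measured value, although the group was chosen with earlier results of these data known. The rule took 233041 of the 3658072 TE copies and 89 of the 1072 repeat names. The mouse-specific L1Md names and 459 copies named L1M with nothing after it, which had between 85 and 107 counts per library, lay outside the rule.

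RNA-seq libraries of poly(A) RNA were compared between WT ESCs (line N12) and G3 Terc-/- ESCs (line F35), both of the C57BL/6 strain and both grown on feeder cells with leukemia inhibitory factor. G3 stands for the third generation bred without Terc, the RNA template of telomerase, and the study used these cells to ask how telomere shortening affects retrotransposons. Each genotype had 2 libraries from 1 line, so genotype and line cannot be told apart. The labels number the libraries as replicates without saying that they came from separate cultures, and p-values therefore measure the spread between these libraries, which may be technical in part.

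LINE-1 elements are retrotransposons that copy themselves through an RNA, which their own proteins reverse transcribe back into the genome. L1M lineages (L1MA, L1MB, L1MC, L1MD, L1ME and those numbered L1M1 onwards) were active early in mammalian evolution, before the L1Md subfamilies that still move in mice. HAL1 elements are related to LINE-1 but have the first of its reading frames only. Copies of both are truncated fossils that no longer encode a working reverse transcriptase, many lie within genes, and reads on them can come from a transcript that merely runs through. The positions of the copies were not analysed here, so a copy carried in a gene's transcript was not set apart from one transcribed on its own.

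TE counts summed to between 1805047 and 2104586 per library and gene counts to between 18047995 and 22520017. Terc had 7 and 2 counts in WT compared with 0 and 0 in G3 Terc-/- ESCs (a 0 allows up to 3 counts). The summed level of 10 ESC marker genes, as CPM of the gene counts (counts scaled to a library total of 1000000), was 5973 to 6044 in WT and 7740 to 8100 in G3 Terc-/- libraries, and that of 10 feeder fibroblast genes was 163 and 103 in WT and 199 and 132 in G3 Terc-/- replicates 1 and 2, higher in replicate 1 of both genotypes, with none of the 20 genes at 0 in all libraries. In such bulk libraries fewer cells of a type and less RNA per cell cannot be told apart, and the part of either marker list in the results was not tested. Below, CPM without further words is scaled to the TE counts of the library. Fold changes are G3 Terc-/- over WT on a log2 scale from edgeR's quasi-likelihood test with TMM normalization (scaling factors from the trimmed mean of log ratios), fitted on all families or all copies of the table. A family is the sum of the copies of one repeat name, and adjusted p-values are Benjamini-Hochberg values over all features fitted together.

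L1M and HAL1 copies together held nearly the same part of the TE counts in both genotypes. They had 86400 and 88216 counts in WT compared with 86872 and 77651 in G3 Terc-/- libraries. As a percent of the TE counts these were 4.20 and 4.19 in WT compared with 4.21 and 4.30 in G3 Terc-/- ESCs. The means were 4.19% ± 0.00335 and 4.25% ± 0.0679 (SD, n = 2 each), a difference of 0.0599 percentage points with p = 0.33 in a two-sided exact permutation test. That p is the smallest that 2 libraries against 2 allow. In the edgeR fit with all members merged, the log2 fold change was -0.04 ± 0.02 (SE, adjusted p = 0.167). In the fit of separate families, TMM factors were 0.982 and 0.983 in the WT and 1.02 and 1.01 in the G3 Terc-/- libraries. The merged fit used TMM factors of its own, which are not given here. In that fit a slightly higher share became a slightly negative fold change. Scaled by the gene counts in place of the TE counts, the log2 fold change was 0.04 (adjusted p = 0.661), and its sign is thus not settled.

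Most of these copies had no count at this depth. A count was seen in any library at 25688 of them, 11.0% compared with 14.6% of all TE copies, and 7293 reached the 5 counts over the 4 libraries that were needed for a test. The tested copies held 90.5% of the counts of the group. Their median was 10 counts over the 4 libraries, 5300 of them (72.7%) stayed under 20, and 791 had at least 50. The part of copies with a count ran from 8.07% of the 35929 L1MA copies and 10.2% of the 18370 L1MD copies to 14.8% of the 30206 L1MB copies.

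Few copies held much of the signal. Of all counts on L1M and HAL1 copies, 22.2% lay on 10 copies and 50% on 202. The HAL1 clade was at one end, where a single copy held 63.2% of the counts. L1MA and L1ME needed 11 copies each to reach 50% and L1MD 17. In contrast, 88 copies were needed among the numbered L1M names, 121 in L1MB and 136 in L1MC. A sum over a name or clade therefore follows a handful of copies in HAL1, L1MA, L1ME and L1MD more than in the other clades.

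**Figure D1:**
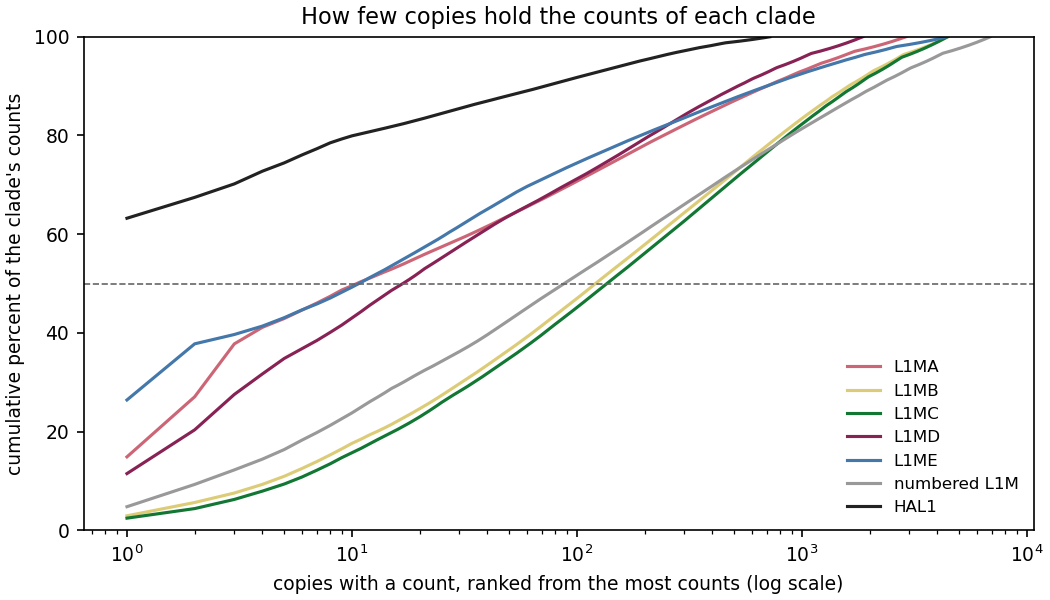
Cumulative percent of the counts of each clade (vertical axis) against the number of copies taken from the one with the most counts (horizontal axis, log scale), over the 4 libraries. The dashed line marks 50%, reached by 1 copy in HAL1, 11 in L1MA and in L1ME, 17 in L1MD, 88 in the numbered L1M names, 121 in L1MB and 136 in L1MC.

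The 7 clades did not move together. L1MA was higher in G3 Terc-/- ESCs, and L1MB, L1MC, L1ME and HAL1 were lower by less than 0.2 on the log2 scale. In the table of 839 families with the members merged into clades, 1 of the 7 clades was thus higher and 4 were lower at an adjusted p under 0.05 at any fold change, where 14.2% and 12.2% of all families and clades tested were called higher and lower.

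L1MA is the youngest of the lettered L1M lineages. It had 4107 and 4182 CPM in WT compared with 5595 and 6312 CPM in G3 Terc-/- libraries. Both G3 Terc-/- libraries lay above both WT libraries, with a log2 fold change of 0.47 ± 0.05 (SE, adjusted p = 0.000244). The rise came with one name, as described below: without L1MA6, left out because its value was seen, the rest of the clade had a log2 fold change of -0.13, a description without a test.

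L1ME, among the oldest lineages, held the most counts. It had 11532 and 11548 CPM in WT compared with 10847 and 10974 CPM in G3 Terc-/- libraries, without overlap, and its log2 fold change was -0.14 ± 0.02 (adjusted p = 0.00330). HAL1 fell from 2823 and 2713 CPM to 2545 and 2595 CPM (log2 fold change -0.16 ± 0.04, adjusted p = 0.00949). This HAL1 value belonged to the copies with the most counts of each name, since without them it was -0.02 (adjusted p = 0.747).

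L1MB had 5875 and 5713 CPM in WT compared with 5624 and 5444 CPM in G3 Terc-/- ESCs, and L1MC had 5061 and 5105 against 4716 and 4957 CPM. Their log2 fold changes were -0.12 ± 0.03 (adjusted p = 0.0121) and -0.13 ± 0.03 (adjusted p = 0.0203). In neither clade did the libraries of the genotypes overlap. A lack of overlap adds little in any of these clades, since L1MD, which gave no call, did not overlap either. The share of all families without overlap was not counted. All 4 lower clades lost their call when scaled by the gene counts, with log2 fold changes of -0.05 (L1MB), -0.05 (L1MC), -0.06 (L1ME) and -0.09 (HAL1) and adjusted p between 0.304 and 0.608, whereas L1MA stayed at 0.55 (adjusted p = 8.25e-07). Without WT replicate 1 none of the 4 had an adjusted p under 0.05 (0.0804 to 0.195), and without WT replicate 2 HAL1 alone did (0.0378, the others 0.0641 to 0.149).

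The remaining clades gave no call. L1MD had 2770 and 2802 CPM in WT compared with 2805 and 2885 CPM in G3 Terc-/- ESCs, and the numbered L1M names had 9794 and 9855 against 9928 and 9853 CPM. Their log2 fold changes were -0.03 (adjusted p = 0.629) and -0.05 (adjusted p = 0.171). The L1MD libraries did not overlap in CPM and were higher in G3 Terc-/- ESCs, although the fitted value was slightly negative.

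**Figure D2:**
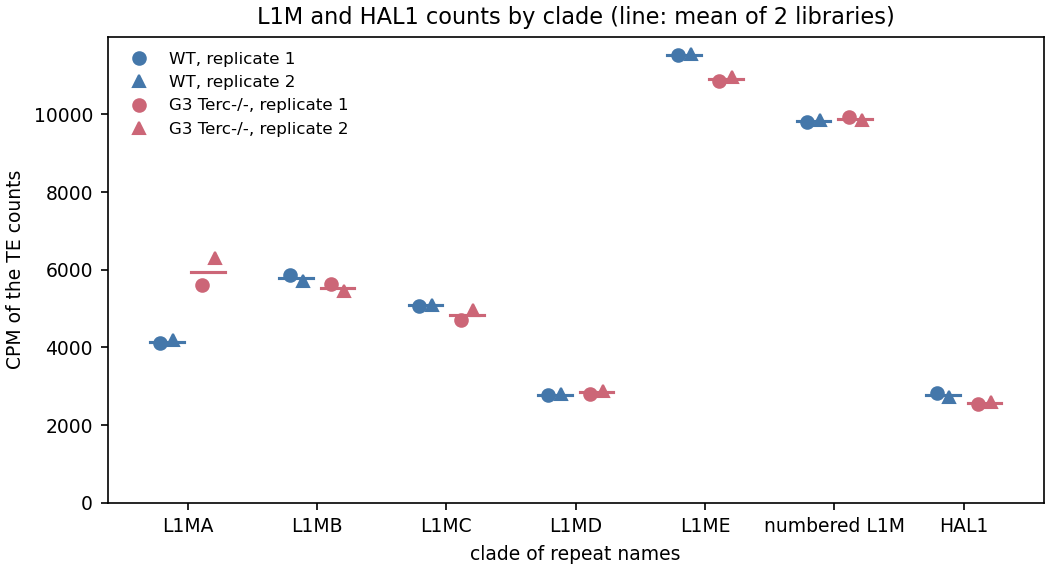
CPM of the TE counts (vertical axis, from 0) of the 7 clades in each library, with WT in blue, G3 Terc-/- in red, circles for replicate 1, triangles for replicate 2 and a line at the mean of the 2 libraries. L1MA stands out with 4107 and 4182 CPM in WT compared with 5595 and 6312 CPM in G3 Terc-/- ESCs, and the other clades lie close together.

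At the level of repeat names, 85 of the 89 could be tested. L1M2a1 had 0 counts in every library, and L1M3a, L1MEg1 and L1MEg2 had 9, 27 and 28 counts over the 4 libraries and did not pass the filter on low counts. At a fold change over 1.5 and P under 0.05, 2 names were higher and 2 lower, where 5.13% and 2.94% of the 917 families tested were called higher and lower. The share of the members was 2.35% in each direction. It lay below that of all families for higher names and near it for lower names, with 2 names each way. The median log2 fold change of the 85 names was -0.11 compared with -0.00461 over all families, 59 were negative, and 59 lay within 0.2 of 0. When scaled by the gene counts, the median was -0.04 against 0.06 over all families.

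L1MA6 was the name with the largest rise. It had 2652 and 2722 counts in WT compared with 6069 and 6395 in G3 Terc-/- libraries. The genotypes were far apart compared with the spread within each, at 1291 ± 3.76 CPM and 3241 ± 427 CPM (SD, n = 2 each), and the log2 fold change was 1.28 ± 0.07 (SE, adjusted p = 7.92e-07). L1MA6 is also the name with the most counts of the L1MA clade, although 6464 of its 6985 copies had no count in any library.

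The whole rise lay on 3 copies. They carry the consecutive running numbers 6789, 6790 and 6791 in the counts. Copy 6789 had 517 and 519 counts in WT compared with 1669 and 1602 in G3 Terc-/- libraries, copy 6790 had 760 and 827 against 2118 and 2279, and copy 6791 had 645 and 635 against 1680 and 1937. Each was about equal in the WT pair and had over 2 times the WT counts in both G3 Terc-/- libraries, and their log2 fold changes were 1.77 ± 0.09, 1.58 ± 0.09 and 1.61 ± 0.10 (SE). The adjusted p-values of the edgeR quasi-likelihood test over all copies were 2.44e-24, 2.16e-22 and 1.54e-21, respectively. Around them the counts were empty, with 8 copies without a count just below them in running number and 7 just above. Most copies of this name, 6464 of 6985, had no count in any library, so an empty stretch is not particular to this place. Whether the 3 copies are pieces of a single insertion or lie in one transcript was not tested.

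The 3 copies together rose from 937 ± 5.50 CPM in WT to 2935 ± 408 CPM in G3 Terc-/- ESCs (SD, n = 2 each), a gain of 1998 CPM. The gain of the L1MA6 name was 1950 CPM and that of the L1MA clade 1809 CPM. All L1M and HAL1 copies together gained 599 CPM, so these 3 copies gained more than the group that holds them. They held 72.6% of the L1MA6 counts in WT and 90.5% in G3 Terc-/- ESCs. Without them L1MA6 was at 353 ± 1.74 CPM in WT and 306 ± 19.9 CPM in G3 Terc-/- ESCs, with a log2 fold change of -0.26. The L1MA clade was then at -0.14 and the total of all members at -0.11. Because the 3 copies were left out for the gain seen in them, these values are descriptions without a test, and they were computed with scaling by the TE counts only.

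**Figure D3:**
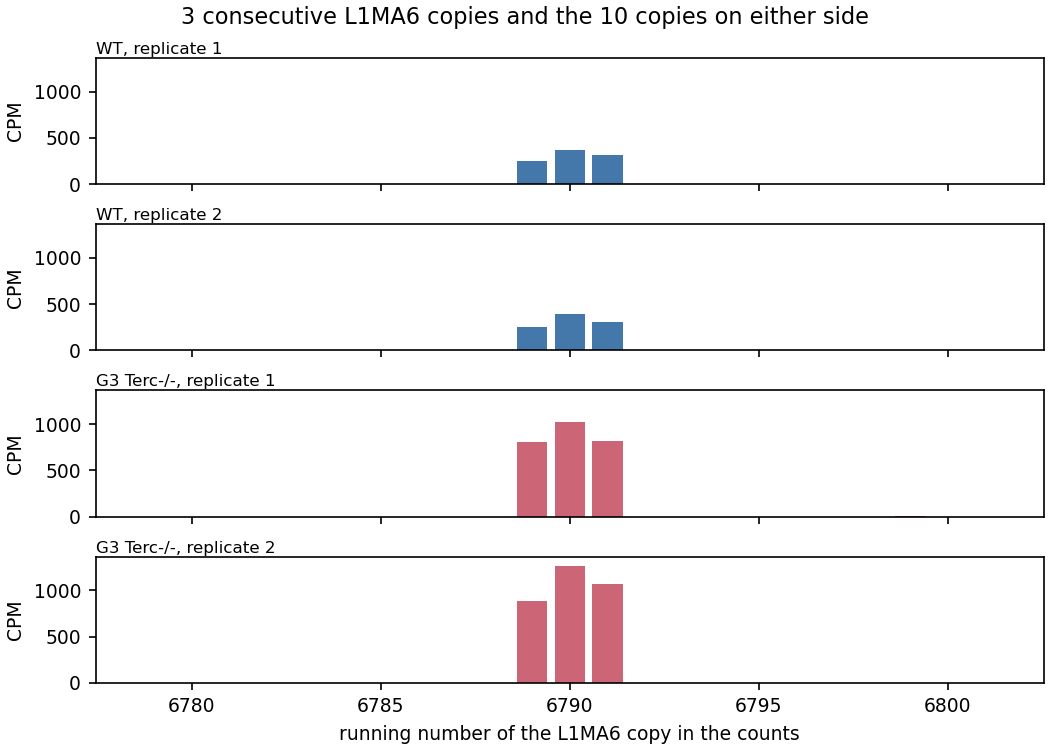
CPM of the TE counts (vertical axis, the same scale in each panel) of L1MA6 copies 6789, 6790 and 6791 and of the 10 copies on either side by running number (horizontal axis), one panel per library. The 3 copies stand far above the others in all 4 libraries and are higher in both G3 Terc-/- libraries, where they sum to 2935 CPM on average, than in the WT libraries, where they sum to 937 CPM.

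L1MDb was the other name above the cutoffs. It had 268 and 524 counts in WT compared with 761 and 772 in G3 Terc-/- libraries, and its log2 fold change was 1.01 ± 0.21 (adjusted p = 0.00633). It was 0.62 without WT replicate 1 and 1.56 without WT replicate 2. A single copy, number 185, held 86.2% of these counts. This copy had 179 and 432 counts in WT compared with 679 and 713 in G3 Terc-/- ESCs, with a log2 fold change of 1.30 ± 0.15 (adjusted p = 1.53e-09). The WT libraries differed between themselves, and the copy was at 0.81 without WT replicate 1, under the cutoff of a fold change of 2, and at 2.06 without WT replicate 2. Without G3 Terc-/- replicate 1 or 2 it was at 1.42 or 1.18 and missed the P cutoff. Without the copy the name was at -0.32 ± 0.16 (adjusted p = 0.217).

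The names past the cutoffs in the lower direction had few counts. L1MCc had 92 and 103 counts in WT compared with 58 and 48 in G3 Terc-/- libraries, with no overlap and a log2 fold change of -0.82 ± 0.17 (adjusted p = 0.00632). No single copy carried this, since the copy with the most counts held 13.3% and without it the value was -0.89. L1M3b had 30 and 39 counts in WT compared with 23 and 15 in G3 Terc-/- libraries. Its log2 fold change of -0.80 ± 0.31 passed by P alone, with an adjusted p of 0.0873, and without the copy that held 52.3% of the counts it was -0.36 ± 0.51 (adjusted p = 0.692). Without WT replicate 2 or G3 Terc-/- replicate 2 it was -0.62 in both fits and missed the P cutoff.

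By adjusted p alone, at any fold change, 2 names were higher and 13 lower, 2.35% and 15.3% of those tested, where the figures over all families were 13.2% and 11.6%. The higher names were again L1MA6 and L1MDb. Of the 13 lower names, 6 were L1ME names, and the rest came from L1MB, L1MC, L1MA, the numbered names and HAL1. Scaled by the gene counts, 5 of the 13 kept an adjusted p under 0.05, and with the top copy of each name left out 6 of the 12 that then gave a value did.

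Of these, L1MC1 and L1ME4c are named after their values were seen. L1MC1 had 1535 and 1565 counts in WT compared with 1234 and 1024 in G3 Terc-/- libraries, a log2 fold change of -0.40 ± 0.05 (adjusted p = 0.000303). It stayed lower without its top copy, at -0.27 (adjusted p = 0.00755). L1ME4c went from 559 and 531 to 368 and 375 counts (log2 fold change -0.50 ± 0.10, adjusted p = 0.00472), and without the copy that held 59.4% of them it was at -0.17 (adjusted p = 0.300). L1MC1 copies 1843, the top copy, and 2466 carried the fall of that name (their counts are given among the single copies). With both left out after their values were seen, L1MC1 had 470 and 447 CPM in WT compared with 468 and 459 CPM in G3 Terc-/- ESCs, which overlapped. The call of L1ME4c rested on one copy.

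The names with the most counts in each of the other clades changed little. L1MEi had 9198 and 9849 counts in WT compared with 8520 and 7546 in G3 Terc-/- libraries, and its log2 fold change was -0.19 ± 0.03 (adjusted p = 0.00172). HAL1ME had 4140 and 4086 against 3613 and 3242 counts (-0.21 ± 0.04, adjusted p = 0.00309), and L1MB7 had 3709 and 3680 against 3379 and 2866 counts (-0.19 ± 0.04, adjusted p = 0.00471). All of them lay under the fold change cutoff, and scaled by the gene counts none kept its call, with values between -0.12 and -0.14. HAL1ME turned to 0.05 (adjusted p = 0.747) without its copy 202, which held 90.0% of its counts.

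L1M4, L1MC4 and L1MD gave no call. L1M4 had 6674 and 7155 counts in WT compared with 7110 and 6314 in G3 Terc-/- libraries (log2 fold change 0.01 ± 0.03, adjusted p = 0.837). L1MC4 had 2097 and 2020 against 1938 and 1799 counts (-0.08 ± 0.05, adjusted p = 0.277), and L1MD had 1815 and 1796 against 1691 and 1537 counts (-0.11 ± 0.05, adjusted p = 0.141).

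**Figure D4:**
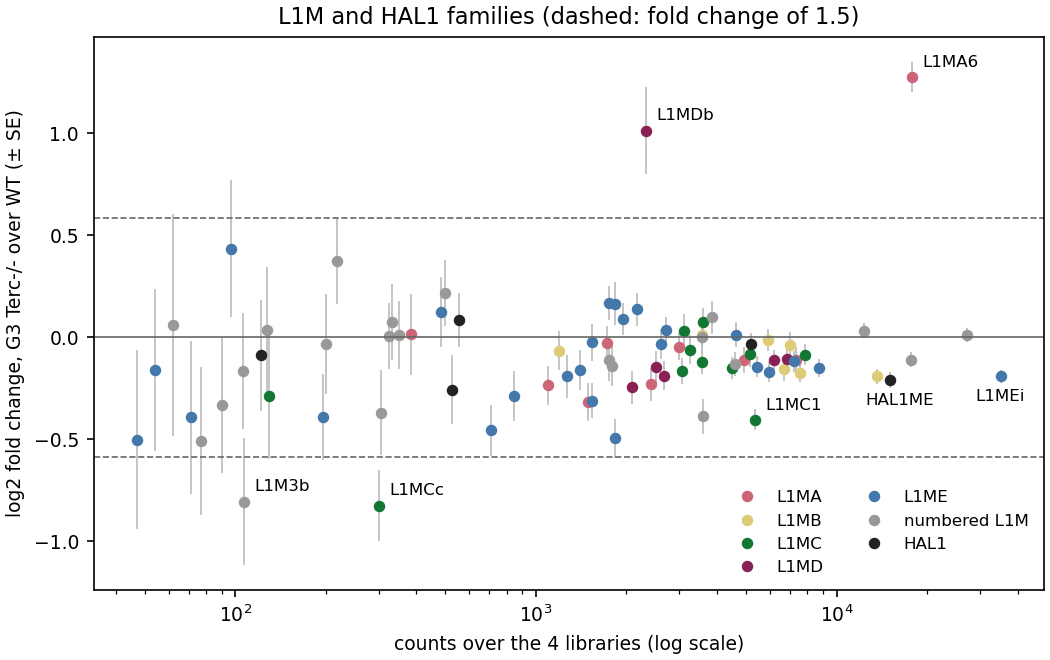
Log2 fold change of G3 Terc-/- over WT (vertical axis) against counts over the 4 libraries (horizontal axis, log scale) of the 85 tested L1M and HAL1 names, coloured by clade, with bars of 1 SE and dashed lines at a fold change of 1.5. L1MA6 at 1.28 and L1MDb at 1.01 stand above the upper line, L1MCc at -0.82 and L1M3b at -0.80 below the lower line, and most names lie slightly below 0.

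Single copies were then compared. At a fold change over 2 and P under 0.05, 218 of the 7293 tested copies rose and 297 fell in G3 Terc-/- ESCs, or 2.99% and 4.07%, where 4.7% and 3.87% of all 176114 TE copies tested were called. At an adjusted p under 0.05 and the same fold change, 20 were higher and 24 lower, or 0.274% and 0.329%, where the figures for all copies were 0.634% and 0.366%. The lower share was near that of all copies in both cases and the higher share was below it. The median log2 fold change was -0.08 compared with 0.02 over all copies, and 48.1% of the member copies were positive compared with 50.5%. With any library of either genotype left out, fewer member copies were called in both directions, and such fits have less power for every feature. Among the 791 member copies with at least 50 counts, 30 were higher and 38 lower, or 3.793% and 4.804%. Over all 21634 TE copies with at least 50 counts, 5.792% were higher and 4.724% lower. With an adjusted p under 0.05 as well, 15 and 15 member copies remained, or 1.896% each way, against 3.005% and 2.334% over all. At this minimum too, the higher share of the members was below that of all copies. Their lower share was near it by P and somewhat below it by adjusted p.

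The calls were spread over the clades. The percent called higher ran from 2.49 in L1MB and 2.51 in L1MC to 3.59 in L1MD, and the percent called lower from 3.06 in HAL1 to 4.94 in L1MC and 5.33 in L1MA. L1MA, the clade whose sum rose, thus had 24 copies called higher and 41 called lower, and its median copy was at -0.17. The copies called by adjusted p belonged to 15 names in the higher and 16 in the lower direction.

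**Figure D5:**
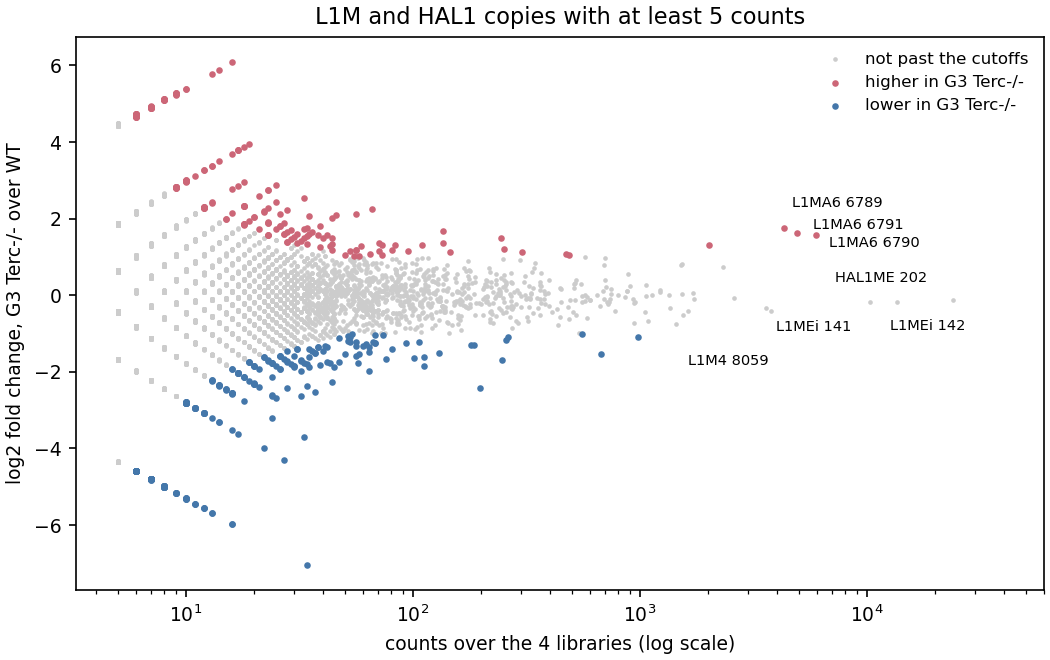
Log2 fold change of G3 Terc-/- over WT (vertical axis) against counts over the 4 libraries (horizontal axis, log scale) of the 7293 tested L1M and HAL1 copies, with copies past the cutoffs in red (218 higher) and blue (297 lower). Most called copies have few counts, and the 3 called ones with the most counts are L1MA6 copies 6789, 6790 and 6791.

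The copies with the most counts were L1MEi 142, HAL1ME 202 and L1MEi 141. L1MEi 142 had 6359 and 6550 counts in WT compared with 5762 and 5169 in G3 Terc-/- libraries, and L1MEi 141 had 2604 and 3034 against 2496 and 2130. HAL1ME 202 had 3777 and 3695 against 3222 and 2876 counts. Their log2 fold changes of -0.14, -0.18 and -0.19 missed the threshold, with adjusted p between 0.326 and 0.512 over all copies. L1MEi 141 was at -0.0793 without WT replicate 2 and at -0.28 without WT replicate 1. The L1MEi copies have consecutive running numbers and held 67.9% and 29.2% of the counts of that name.

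After the L1MA6 copies came L1M4 8059, L1M2b 15, L1MD 3327 and L1M4 613. The L1M4 copies moved in opposite directions: copy 8059 had 1075 and 1152 counts in WT compared with 805 and 759 in G3 Terc-/- libraries (log2 fold change -0.40 ± 0.09, adjusted p = 0.00584), and copy 613 had 424 and 491 against 764 and 647 (0.73 ± 0.10, adjusted p = 6.81e-07). Both stayed under a fold change of 2, and the L1M4 name as a whole was at 0.01. L1M2b 15 held 99.8% of the counts of its name, with 1017 and 1040 in WT compared with 887 and 634 in G3 Terc-/- libraries (-0.34 ± 0.10, adjusted p = 0.0570), and it was at -0.19 without G3 Terc-/- replicate 2 and at -0.51 without replicate 1. L1MD 3327 had 696 and 688 against 630 and 585 counts (-0.08 ± 0.10, adjusted p = 0.838).

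Among called copies with at least 50 counts, the 5 higher ones with the smallest P were the 3 L1MA6 copies, L1MDb 185 and L1MA4 866. L1MA4 866 had 39 and 28 counts in WT compared with 97 and 80 in G3 Terc-/- libraries, with a log2 fold change of 1.5 ± 0.23 (adjusted p = 5.99e-06).

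Of the 5 lower ones, those with the smallest P were L1MC1 2466 and L1M2 430. L1MC1 2466 had 236 and 272 counts in WT compared with 93 and 70 in G3 Terc-/- libraries (log2 fold change -1.54 ± 0.15, adjusted p = 1.44e-11). L1M2 430 had 78 and 91 against 11 and 18 counts (-2.43 ± 0.29, adjusted p = 4.51e-09). Both were picked by their small P, so the distance between the genotypes is no added support.

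Another L1MC1 copy, 1843, went from 331 and 352 to 174 and 126 counts (-1.09 ± 0.13, adjusted p = 1.02e-08). L1ME4a 1249 went from 77 and 115 to 34 and 21 counts (-1.70 ± 0.25, adjusted p = 1.27e-06), and HAL1 2782 from 200 and 179 to 95 and 79 counts (-1.02 ± 0.16, adjusted p = 8.74e-06). For all 5, each G3 Terc-/- library had fewer counts than each WT library. They were picked by P among copies called lower, so this too is no added support. HAL1 2782 and L1MC1 1843 lie next to the fold change cutoff of 2 (log2 of 1) and fell under it without G3 Terc-/- replicate 2, at -0.97 and -0.95, HAL1 2782 also without WT replicate 1, at -0.93, and when scaled by the gene counts. L1ME4a 1249 narrowly missed the P cutoff without G3 Terc-/- replicate 1 or 2, with values of -1.99 and -1.47.

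Few copies were seen in one genotype alone, and they are named after their values were seen. With at least 15 counts in one genotype and 0 in the other, 1 copy was found in G3 Terc-/- and 3 in WT libraries, out of 7293, and over all TE copies the numbers were 99 and 42 of 176114. L1MA7 2484 had 21 and 13 counts in WT, at least 10.5-fold lower in G3 Terc-/- ESCs when 3 counts over the pair of libraries are taken as the limit of a count of 0. L1M5 188 had 5 and 11 counts in G3 Terc-/- libraries, at least 5.74-fold higher by the same limit. L1MB3 4631 (13 and 3 counts in WT) and L1M4 13575 (8 and 8) were at least 4.96-fold lower. Here the words at least allow for error in the count of 0 alone. The counts seen are taken as exact, and the copies were chosen for the gap, so these folds are not strict lower limits.

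Copies with adjacent running numbers tended to have similar fold changes, among the members as among all TE copies. Over 136 pairs of member copies of one name with consecutive numbers and at least 50 counts each, Pearson's r of the log2 fold changes was 0.63, and 69.9% of the pairs had the same sign. Without the 3 L1MA6 copies r was 0.58 over 134 pairs. Over 2804 adjacent pairs of all TE copies r was 0.75, and 71.6% had the same sign. Over 374 pairs of all TE copies whose running numbers were 10 apart, r was 0.30 and 60.2% had the same sign. Only 3 member pairs were 10 apart, too few for this comparison among the members. These values describe pairs within the same libraries, and copies are not independent replicates, so no p is given.

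Finally, the summed level was set against that of other groups of repeats within each library. The log2 ratio of L1M and HAL1 counts to L1Md counts, the younger LINE-1 subfamilies of the mouse, was 1.36 and 1.32 in WT compared with 0.50 and 0.58 in G3 Terc-/- libraries. It differed by -0.80 between the means, beyond the SDs of 0.02 and 0.05, with p = 0.33 in the two-sided exact permutation test, the smallest possible (0.50 adjusted over the 3 ratios). The libraries did not overlap. L1Md counts themselves were 16551 ± 258 CPM in WT and 29246 ± 570 CPM in G3 Terc-/- ESCs (SD, n = 2 each), so the ratio moved with the L1Md side.

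Against the LINE-1 names of intermediate age (Lx, L1_ and L1VL), the log2 ratio was 0.14 and 0.16 in WT compared with 0.00801 and 0.03 in G3 Terc-/- libraries, a difference of -0.13 (exact permutation p = 0.33, adjusted 0.50). Against L2, L3 and MIR, the other ancient retrotransposons, it was -0.94 and -0.94 in WT against -0.94 and -0.84 in G3 Terc-/- libraries, which overlapped (difference 0.05, exact permutation p = 0.667, adjusted 0.667). Of the tested copies, 21.9% of L1Md and 5.93% of intermediate LINE-1 copies were called higher, compared with 2.99% of L1M and HAL1 and 3.10% of L2, L3 and MIR copies, and 1.17%, 3.34%, 4.07% and 4.01% were called lower. L1M and HAL1 copies thus had shares close to those of L2, L3 and MIR in both directions, a description without a test.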

How the data were processed

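RNA was poly(A) selected and sequenced as paired ends. Alignment by the authors used STAR at default parameters and the build mm10, and the submitters' processing notes also name Trim Galore and featureCounts. Versions and the strand setting are not given in the sources used here, so a copy and a gene on the other strand cannot be told apart. Single copies were counted, per the study's methods, from reads that map once, which leaves out reads that fall equally on near-identical copies. The authors deposited raw counts per gene and per TE copy, without normalization, and 0 other columns were present.

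From the deposited counts, copies were summed by repeat name, by 7 clades and in total. The filter was filterByExpr for families and 5 counts summed over the 4 libraries for copies. Each table was fitted whole with edgeR 4.0.16 (TMM, quasi-likelihood test) in R 4.3.3 on a model of genotype alone, with Benjamini-Hochberg adjustment over all features. SEs were taken as the fold change over the square root of F. The cutoffs were a fold change of 1.5 (families) or 2 (copies) and P under 0.05. CPM used TE counts, except for marker genes. Exact permutation tests used scipy 1.17.1, and figures were drawn with matplotlib 3.10.9. The edgeR steps were tested on simulated counts. TE counts per library lay between 1805047 and 2104586, and limits for counts of 0 cover counting error only.

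The text names families past the cutoffs, the name with the most counts in each clade, the 10 copies with the most counts, and among called copies of at least 50 counts the 5 with the smallest P in each direction. The members, lists and tests were chosen with earlier results of these data known. Alternatives were DESeq2 1.42.0, its size factors, gene-count scaling, a replicate block, other filters and calls, the copy with the most counts left out, and each library left out. Leaving out L1MA6, L1MDb or the 3 L1MA6 copies and crossing the replicate numbers were added after seeing the data. Positions of copies were not analysed here.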

Additional observations from a re-analysis of the deposited data

How the results depend on the processing

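L1MA6, L1MDb and L1MCc stayed past the cutoffs in DESeq2, with its size factors, scaled by the gene counts, with the replicate block and with any library left out, and L1MA stayed higher in the same settings. The number of higher families was 1 without the top copy of each name (that with the most counts) and 1 without the 3 L1MA6 copies, and that of lower families was 1 with DESeq2, without those top copies and by adjusted p. Of the single names and copies under each alternative, 289 of 307 values kept their direction and side of the threshold, 13 lost the call and 5 turned sign. The threshold here is the fold change with P. Many of the names and copies chosen for their counts were not past it in the main fit, so a kept side says little for them. The calls by adjusted p that L1MEi, HAL1ME and L1MB7 lost when scaled by the gene counts are thus not among the 13. The last were L1MA6 at -0.26 without its 3 copies, L1MDb at -0.32 and HAL1ME at 0.0452 without their top copy, and L1M4, never called, which ran from -0.0201 (without WT replicate 1) to 0.0458, and was at -0.00199 without G3 Terc-/- replicate 2.

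Counts of called copies depended most on the setting. With no filter 281 copies were higher and 290 lower, nearly even, against 218 and 297 in the main fit. DESeq2 gave 62 and 72, filterByExpr 43 and 67, a minimum of 20 counts 86 and 118, and adjusted p 20 and 24. The fewer copies tested under a filter lower these numbers by construction, and for DESeq2 the cause was not tested. The replicate block gave 123 and 169, and the block with crossed numbers 122 and 176. Apart from the main fit and adjusted p, the share called over all TE copies is not given for these settings. The numbers therefore do not set the members against all copies. The labels state nothing that same-numbered libraries share, the summed feeder level was higher in replicate 1 of both genotypes (163 and 199 CPM of the gene counts compared with 103 and 132), and the correlation of deviations between same-numbered libraries was -0.0470 over all families, -0.343 over member families and 0.0240 over member copies of at least 50 counts. With the block, L1MC was at -0.13 with adjusted p = 0.0523 in edgeR.

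Scaled by the gene counts, L1MB (-0.0454), L1MC (-0.0497), L1ME (-0.0593) and HAL1 (-0.0856) lost their calls, and L1MD (0.0517), the numbered names (0.0309) and the total (0.0425) turned positive, without a call before or after. Without the 3 L1MA6 copies, without L1MA6, and without L1MA6 and L1MDb, L1MA was at -0.14, -0.13 and -0.13, and the total at -0.11, -0.11 and -0.12. L1MD was at -0.14 without L1MA6 and L1MDb. These names and copies were left out for their values, so no test is read from these fits. L1MD was called lower at -0.12 without top copies, and HAL1 lost its call at -0.0235 without top copies.

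With each library left out in turn, log2 fold changes ran from 0.36 to 0.56 for L1MA, -0.15 to -0.0974 for L1MB, -0.18 to -0.0789 for L1MC, -0.0601 to 0.00770 for L1MD (positive without G3 Terc-/- replicate 1), -0.16 to -0.12 for L1ME, -0.0550 to -0.0384 for the numbered names, -0.20 to -0.13 for HAL1 and -0.0704 to -0.0179 for the total. Called families ran from 2 to 2 (higher) and from 1 (without WT replicate 2) to 3 (lower), and called copies from 73 to 181 and from 201 to 250. The share of TE counts differed by 0.0119 to 0.108 percentage points, and the log2 ratios by -0.84 to -0.76 (L1Md), -0.15 to -0.12 (intermediate LINE-1) and 0.00110 to 0.0975 (L2, L3 and MIR). These fits assume that the lone library varies like the other group, and without a G3 Terc-/- library the spread came from the closely similar WT pair. The total then passed the threshold, at -0.0179 and -0.0704, as did the numbered names without G3 Terc-/- replicate 2.

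Limits were the 2 libraries and 1 line per genotype and the low depth per copy, with a median of 10 counts over the 4 libraries among tested copies.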
